A study of Mus musculus with 10 samples.

Results

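The genes described here are the chemokines and their receptors, 55 genes of the 22180 measured in the series. They were chosen by symbol: every mouse gene named in the Ccl, Cxcl, Cx3cl1, Xcl1, Ccr, Cxcr, Cx3cr1, Xcr1 or Ackr series that had a transcript cluster (the array's set of probes for a gene) listed with that symbol alone. The rule itself uses no measured value, but the family was chosen with earlier results of these data known. Of the 55 genes, 34 code for ligands, 17 for signalling receptors and 4 for atypical receptors. Only Ccl27a had more than 1 cluster, and its brighter one was used. Ccl19, Ccl21a, Ccl21b, Ccl21c and Ccl27b had no cluster of their own and are not analysed here as single genes.

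RNA of 10 liver samples from fasted male mice was hybridised to 1 whole-transcript array each, and around 2 weeks earlier every mouse had been given adeno-associated virus whose TBG promoter is active in hepatocytes. LTKO FST288 livers (n = 2) came from mice labelled LTKO whose virus carried Fst288, and LTKO GFP livers (n = 2) from LTKO mice whose virus carried GFP. HFD FST288 livers (n = 3) and HFD GFP livers (n = 3) came from wild-type mice kept on a high-fat diet, with the same viruses. FST288 is a form of the secreted protein follistatin, which binds activins and related ligands, and GFP is an inert fluorescent protein that serves as the control cargo. LTKO is not spelt out in the labels; as background, it denotes a liver triple knockout of Foxo1, a transcription factor inhibited by insulin, and of Irs1 and Irs2, which relay the signal of the insulin receptor. The diet of the LTKO mice, the age and the strain are not given in the labels, so genotype and diet cannot be told apart between LTKO and HFD livers. No liver without virus was measured. Whether the arrays of a group come from separate animals is not stated, and the p-values then measure the spread between these samples.

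Chemokines are small secreted proteins that draw white blood cells along a gradient. They act on G-protein-coupled receptors of the Gi class, while atypical receptors take chemokines up without that signal and so clear them. In the liver they come from Kupffer cells (the resident macrophages), endothelium, stellate cells and hepatocytes, and they steer monocytes, neutrophils and lymphocytes into the tissue. In a bulk liver sample, fewer cells of a type and less RNA per cell cannot be told apart.

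Many chemokine promoters carry sites for NF-kB, the transcription factor of inflammatory signalling, and for interferon regulatory factors. Promoter windows of 250 bases upstream of the start site were read from the RefSeq promoter table of the build GRCm38.p6, which held windows for 41 of the 55 genes, 45 windows in all. The NF-kB consensus was present on either strand in 9 of the 45 windows (20%), against 3.9% of the 32851 windows of all genes. A pair of GAAA cores with 2 bases between them, read by interferon regulatory factors, was present in 2 (4.44%, against 2.98% of all windows), and TTCNNNGAA, read by STAT factors, in 3 (6.67%, against 7.02%). A match is a description of the letters and not a site shown to be used. The windows of 3 genes are printed 5′ to 3′ with the matches in capitals: Ccl9 and Cxcl1, since these genes passed the test below in more than 1 comparison, and Cxcl10, as the interferon-induced ligand that holds both kinds of match.
Ccl9: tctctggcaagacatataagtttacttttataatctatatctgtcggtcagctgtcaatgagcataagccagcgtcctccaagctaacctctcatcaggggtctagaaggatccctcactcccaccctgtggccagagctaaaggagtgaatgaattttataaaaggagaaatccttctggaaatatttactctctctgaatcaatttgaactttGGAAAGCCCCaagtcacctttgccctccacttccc
Cxcl1: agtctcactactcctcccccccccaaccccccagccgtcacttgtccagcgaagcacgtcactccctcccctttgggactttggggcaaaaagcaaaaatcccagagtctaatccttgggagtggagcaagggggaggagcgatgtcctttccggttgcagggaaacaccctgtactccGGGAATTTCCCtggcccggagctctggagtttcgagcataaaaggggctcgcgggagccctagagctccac
Cxcl10: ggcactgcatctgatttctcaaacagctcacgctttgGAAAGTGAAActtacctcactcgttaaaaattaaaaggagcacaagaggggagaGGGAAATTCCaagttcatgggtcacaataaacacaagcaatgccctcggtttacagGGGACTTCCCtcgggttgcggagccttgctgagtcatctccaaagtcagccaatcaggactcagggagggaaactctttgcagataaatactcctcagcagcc
The Ccl9 window lies at chr11:83578637-83578886 on the minus strand, and its NF-kB match spans bases 35 to 26 before the start site. The Cxcl1 window lies at chr5:90890995-90891244 on the plus strand and holds 2 overlapping NF-kB matches, at bases 71 to 62 and 70 to 61. The Cxcl10 window lies at chr5:92348890-92349139 on the minus strand, with the interferon regulatory factor match at bases 213 to 204 and NF-kB matches at bases 159 to 150 and 103 to 94. The windows of Cxcl9 and Cxcl13 hold none of the 3 motifs, which says only that these letters are not in those windows.

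Values are RMA signals on the log2 scale, as the authors deposited them. Array medians over all clusters lay between 2.71 and 2.75. The hepatocyte markers had the strongest signal, with array medians of 11.61 to 12.22 over 8 genes. The labels and the marker genes were compared on each array, and 3 arrays stood apart. On HFD FST288 replicates 2 and 3 the median of 7 pancreatic acinar markers was 8.29 and 7.32, against 2.11 to 2.47 on the other 8 arrays. On LTKO FST288 replicate 2 the median of 8 Kupffer cell markers was 7.36, against 5.67 to 6.35 on the other 9 arrays, and that of 6 monocyte markers was 3.76, against 2.45 to 2.77. Losses of a call without these arrays are given beside the main results that rest on their groups. Differences were tested with limma's moderated test across all 22180 genes, and a gene was called at a Benjamini-Hochberg adjusted p under 0.05.

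Signals of the family were low on the whole. The median gene of the array averaged 3.12 over the 10 arrays, and 20 of the 55 chemokine genes lay above it and 35 at or below it. A signal depends on a gene's probes as well as on its RNA, so the order of the genes is an order of signals and not of transcript amounts. Ccl9, a CC ligand of macrophages and myeloid cells in mice, had the highest mean signal (9.13, above 98.2% of all genes). Cxcl12, the ligand that holds stem cells and lymphocytes in tissues through Cxcr4, followed at 8.15 (above 96.1% of genes). Cxcl9, an interferon-induced ligand of Cxcr3, averaged 6.81, Cxcl16, a membrane-bound ligand of Cxcr6, 5.37, and Ccl25, a ligand of Ccr9, 4.50. The receptors with the highest signals were the atypical receptor Ackr2 (4.33), the fractalkine receptor Cx3cr1 (3.70) and the Cxcl12 receptor Cxcr4 (3.67).

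**Figure D1:**
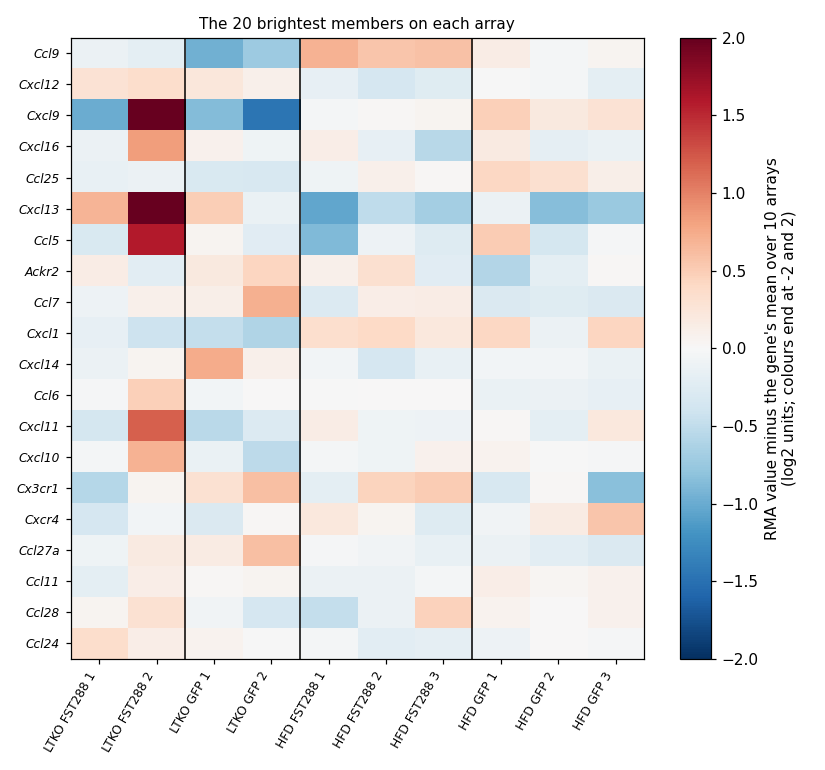
Each row is 1 of the 20 chemokine genes above the median gene and each column 1 array, by group; the colour is the RMA log2 value minus the gene's mean over the 10 arrays, with the scale ending at -2 and 2. Ccl9 is lowest on the LTKO GFP arrays, and LTKO FST288 replicate 2 is highest of all arrays for 9 of the 20 genes. That count was not taken over all genes.

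The first comparison asks what hepatocyte-made FST288 did to the family in the wild-type mice fed high fat. Ccl9 rose, and no other chemokine gene passed the test. Ccl9 read 9.82, 9.69 and 9.72 in HFD FST288 livers, against 9.29, 9.10 and 9.19 in HFD GFP livers. Every FST288 array lay above every GFP array. The difference was 0.55 ± 0.08 on the log2 scale (SE), 1.47-fold, with an adjusted p of 0.0055. That is 1 of 55 genes called (1.82%), where 0.996% of all 22180 genes were called in this comparison, 0.577% higher and 0.419% lower. Among genes above the median signal, 1 of 20 chemokine genes (5%) was called, against 1.84% of all genes.

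The Ccl9 call held in all 10 fits that left out 1 array, with differences of 0.51 to 0.60. With the acinar signal as a covariate the difference was 0.64 (adjusted p 0.0757), and without the 2 HFD FST288 arrays that were high in acinar markers it was 0.63 (adjusted p 0.201), so the call was lost at a difference no smaller than in the fit of all arrays. It was also lost without an intensity trend in the error (adjusted p 0.0524). All 8 Kupffer cell markers read lower on average in HFD FST288 than in HFD GFP livers, with a median difference of -0.20 and 0 calls. Ccl9 sits beside Ccl6 and Ccl5 in the CC gene cluster of mouse chromosome 11. Ccl6, a related myeloid ligand, read 3.93, 3.94 and 3.96 in HFD FST288 livers, against 3.81, 3.82 and 3.78 in HFD GFP livers. These arrays did not overlap either, but the difference of 0.14 ± 0.14 did not pass the test (adjusted p 0.751). Ccl5, a T cell and NK cell chemokine, read 3.54, 4.33 and 4.17 in HFD FST288 livers, against 4.93, 4.07 and 4.39 in HFD GFP livers, with overlapping arrays (difference -0.45 ± 0.37, adjusted p 0.704).

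**Figure D2:**
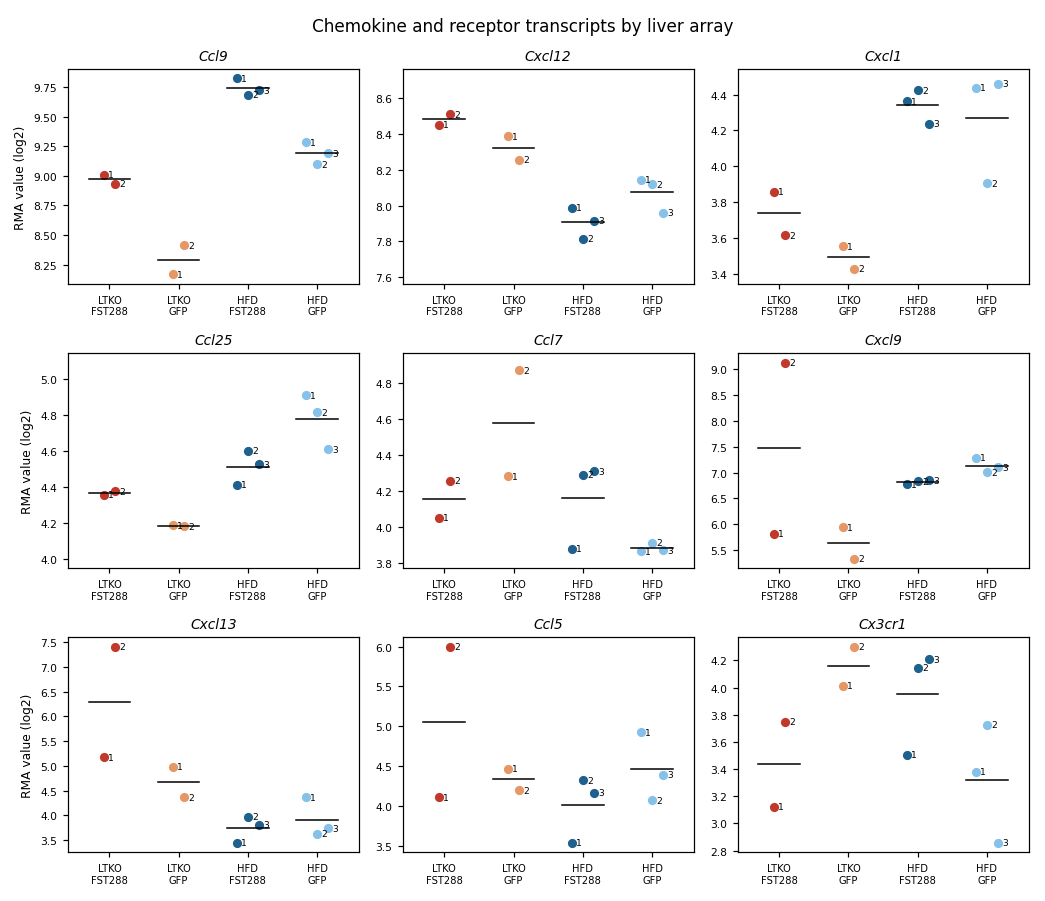
RMA log2 value of 9 chemokine genes on each of the 10 arrays, by group; points are arrays numbered by replicate and black lines are group means. Every HFD FST288 array (9.69 and above) reads higher for Ccl9 than every HFD GFP array (9.29 and below), and LTKO FST288 replicate 2 stands apart for Cxcl9, Cxcl13 and Ccl5.

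None of the other genes of the family passed the test in HFD livers. The median difference over the 55 genes was -0.04 (all genes -0.003) and the median size 0.10 (all genes 0.12). At an unadjusted p under 0.05, 3 genes were higher and 2 lower, where 6.02% of all genes were in each direction. Cx3cr1, which marks patrolling monocytes and some macrophages, read 3.51, 4.15 and 4.21 in HFD FST288 livers, against 3.38, 3.73 and 2.86 in HFD GFP livers (difference 0.63 ± 0.24, adjusted p 0.295). Ccr7, the receptor that guides dendritic cells and T cells to lymph nodes, read 3.10, 2.59 and 2.64 in HFD FST288 livers, against 3.15, 3.39 and 3.44 in HFD GFP livers. Its groups did not overlap, at signals close to those of the median gene, and the difference was -0.55 ± 0.18 (adjusted p 0.208). Arrays of the groups did not overlap for 5 genes in each direction, where 9.3% of all genes did so upward and 9.11% downward. Cxcl9 was 1 of those 5 lower genes, at 6.77, 6.83 and 6.86 in HFD FST288 livers and 7.29, 7.004 and 7.10 in HFD GFP livers (difference -0.31 ± 0.54, adjusted p 0.88). The SE of Cxcl9 comes from a spread shared by all 10 arrays, and most of it lies in the LTKO FST288 group described below.

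**Figure D3:**
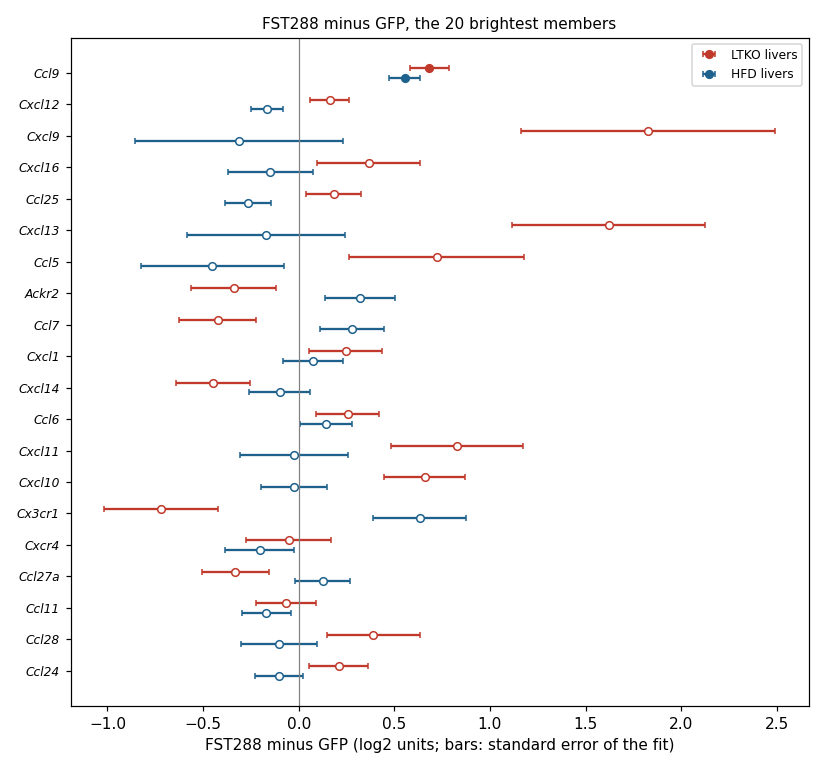
Log2 difference of FST288 minus GFP for each chemokine gene above the median gene, in LTKO livers and in HFD livers; points are differences, bars are SE, and filled points were called at an adjusted p under 0.05. Ccl9 is the gene with a filled point in both backgrounds.

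The same comparison in LTKO livers gave the same single call. Ccl9 read 9.01 and 8.94 in LTKO FST288 livers, against 8.17 and 8.41 in LTKO GFP livers, and the arrays did not overlap. The rise was 0.68 ± 0.10, 1.6-fold, with an adjusted p of 0.0161. That is 1 of 55 genes called (1.82%), against 0.167% of all genes (0.0992% higher and 0.0676% lower). The Ccl9 difference in LTKO livers minus that in HFD livers was 0.13 ± 0.13 (adjusted p 0.74), so the 2 effects differed by no more than 1 SE. The LTKO call rests on 4 arrays: it was lost without LTKO GFP replicate 1 (difference 0.56, adjusted p 0.0739) and when these 4 arrays were fitted alone (adjusted p 0.514). The other 9 fits that left out 1 array kept it, and of the 10 other settings 5 kept it, the losses including those without an intensity trend (adjusted p 0.114), with all clusters tested (adjusted p 0.112) and without the acinar-high arrays (adjusted p 0.0827). All 8 Kupffer cell markers read higher on average in LTKO FST288 than in LTKO GFP livers, with a median difference of 0.76 and 0 calls. For 6 of the 8 the arrays did not overlap, where 16.8% of all genes did so upward. The array medians of that list were 5.95 and 7.36 in LTKO FST288 livers, against 5.85 and 5.85 in LTKO GFP livers. Without LTKO FST288 replicate 2, the array high in these markers, the Ccl9 difference was 0.72 (adjusted p 0.034).

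Several other ligands had large mean differences in LTKO livers that 1 array carried. Cxcl9 read 5.82 and 9.12 in LTKO FST288 livers, against 5.95 and 5.34 in LTKO GFP livers. The first FST288 array lay between the GFP arrays and the second was 9.89-fold above the first. The mean difference of 1.82 ± 0.66 did not pass the test (adjusted p 0.373). Without LTKO FST288 replicate 2 it was 0.17 (adjusted p 0.898), and without replicate 1 it was 3.48 (adjusted p 2.03e-06). Cxcl13, the B cell ligand of Cxcr5, read 5.17 and 7.41 in LTKO FST288 livers, against 4.98 and 4.36 in LTKO GFP livers (difference 1.62 ± 0.51, adjusted p 0.289). Both FST288 arrays were above both GFP arrays, and the second was 4.71-fold above the first.

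Ccl5, the other interferon-induced Cxcr3 ligands and Cxcl16 were also highest on that array. Ccl5 read 4.11 and 5.998 in LTKO FST288 livers, against 4.47 and 4.20 in LTKO GFP livers. Cxcl11 read 3.52 and 5.07 in LTKO FST288 livers, against 3.34 and 3.599 in LTKO GFP livers, with overlap. Cxcl10 read 3.85 and 4.57 in LTKO FST288 livers, against 3.74 and 3.36 in LTKO GFP livers, without overlap. Cxcl16 read 5.25 and 6.21 in LTKO FST288 livers, against 5.46 and 5.28 in LTKO GFP livers. Each of these 4 genes has its highest value of the 10 arrays on LTKO FST288 replicate 2, and none passed the test between LTKO FST288 and LTKO GFP (adjusted p 0.665 for Ccl5, 0.454 for Cxcl11, 0.314 for Cxcl10, 0.724 for Cxcl16). Cxcl11 falls outside the rule for named genes and was chosen after its values were seen.

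The arrays of the LTKO FST288 group differed from each other more than those of the LTKO GFP group in these genes. On LTKO FST288 replicate 2, 4 of the 55 genes (7.27%), Cxcl9, Cxcl13, Ccl5 and Cxcl11, read more than 1 log2 unit above replicate 1, where 0.803% of all genes did so, and none read more than 1 below. Between the 2 LTKO GFP arrays 0 of the 55 genes were more than 1 apart, where 102 of all 22180 genes were. LTKO FST288 replicate 2 was the highest of the 10 arrays for 9 of the 20 genes above the median signal, a count not taken over all genes. Markers of Kupffer cells and monocytes were also higher on this array: 6 of 8 Kupffer cell markers and 3 of 6 monocyte markers read more than 1 higher than on replicate 1, and 1 of 6 T cell markers (Cd3g) did. Marco, a scavenger receptor of macrophages, read 5.48 and 7.59 in LTKO FST288 livers, against 4.82 and 4.40 in LTKO GFP livers, and Ly6c2, a monocyte marker, read 2.62 and 5.09 in LTKO FST288 livers, against 2.77 and 2.67 in LTKO GFP livers. The sum of the Kupffer cell markers on the linear scale was 642 to 1410 in LTKO FST288 livers, 526 to 584 in LTKO GFP livers, 417 to 501 in HFD FST288 livers and 419 to 634 in HFD GFP livers. Neutrophil, NK cell, B cell, dendritic cell, sinusoidal endothelium, stellate cell, cholangiocyte and hepatocyte lists had 0 markers more than 1 higher. The part of these cell markers in the chemokine values was not tested.

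**Figure D4:**
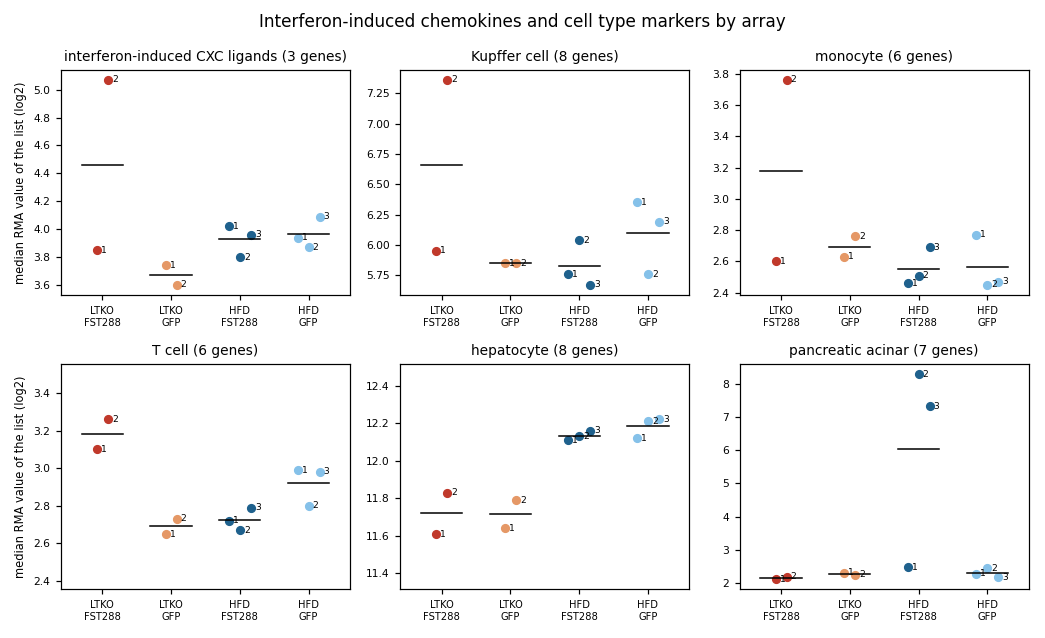
Median RMA log2 value of cell type marker lists on each of the 10 arrays, by group; points are arrays numbered by replicate and black lines are group means. LTKO FST288 replicate 2 reads 7.36 for the Kupffer cell list, against at most 6.35 elsewhere, and HFD FST288 replicates 2 and 3 read 8.29 and 7.32 for the pancreatic acinar list, against at most 2.47.

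Other genes read lower under FST288 in LTKO livers, and none of them passed the test. Cx3cr1 read 3.12 and 3.75 in LTKO FST288 livers, against 4.01 and 4.30 in LTKO GFP livers (difference -0.72 ± 0.30, adjusted p 0.449). Ccl7, a monocyte ligand of Ccr2, read 4.05 and 4.26 in LTKO FST288 livers, against 4.28 and 4.87 in LTKO GFP livers (difference -0.42 ± 0.20, adjusted p 0.518). Cxcl14, an orphan ligand of epithelia, read 3.89 and 4.06 in LTKO FST288 livers, against 4.75 and 4.11 in LTKO GFP livers (difference -0.45 ± 0.19, adjusted p 0.463). In none of these 3 genes did the groups overlap. At an unadjusted p under 0.05, 6 chemokine genes were higher and 4 lower in LTKO FST288 livers, where 4.73% and 5.24% of all genes were. Over the family, 10 genes did not overlap upward and 17 downward, where 16.8% and 21.1% of all genes did so. The median difference over the 55 genes was -0.04 (all genes -0.017). The median size was 0.23, against 0.13 over all genes.

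No chemokine gene passed the test for a difference between the 2 FST288 effects, where 0.216% of all genes did. At an unadjusted p under 0.05, 6 genes had a more positive effect in LTKO livers and 4 a more negative one, where 6.02% and 6.58% of all genes did so. Cx3cr1 had the smallest of these p-values: its FST288 difference was -0.72 in LTKO livers and 0.63 in HFD livers, a difference of -1.35 ± 0.38 (unadjusted p 0.0037, adjusted p 0.18). Ccl25 was apart in opposite ways, with 4.36 and 4.38 in LTKO FST288 livers against 4.19 and 4.18 in LTKO GFP livers, and 4.41, 4.60 and 4.53 in HFD FST288 livers against 4.91, 4.82 and 4.61 in HFD GFP livers. Its difference of effects was 0.45 ± 0.19 (adjusted p 0.349). Cxcr2, the receptor that draws neutrophils to Cxcl1 and its relatives, was apart the other way, at 2.36 and 2.62 in LTKO FST288 livers against 3.00 and 2.79 in LTKO GFP livers, and at 2.69, 2.58 and 2.58 in HFD FST288 livers against 2.57, 2.50 and 2.57 in HFD GFP livers. Its difference of effects was -0.48 ± 0.20 (adjusted p 0.336), at signals below that of the median gene. Leaving out LTKO FST288 replicate 1, which makes replicate 2 stand for its group alone, turned 0 calls of this comparison into 5 (Ccl5, Ccr3, Cxcl11, Cxcl13 and Cxcl9). Leaving out replicate 2 left it at 0.

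The comparison of LTKO with HFD livers under the GFP virus gave 5 calls, 3 ligands lower and 2 higher. The 5 of 55 are 9.09%, where 13.1% of all genes were called in this comparison (6.4% lower, 6.69% higher). Among genes above the median signal 5 of 20 chemokine genes (25%) were called, against 23.8% of all genes, so the family was called about as often as other genes of that signal. Arrays did not overlap for 15 genes upward and 9 downward, where 21.1% and 19.2% of all genes did so. This comparison shares the HFD GFP and LTKO GFP arrays with the FST288 comparisons above.

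Ccl9 fell to 8.17 and 8.41 in LTKO GFP livers, against 9.29, 9.10 and 9.19 in HFD GFP livers. The arrays did not overlap, and the difference was -0.90 ± 0.09, 1.87-fold lower in LTKO GFP livers (adjusted p 1.97e-05). Ccl9 fell in FST288 livers too, to 9.01 and 8.94 in LTKO FST288 livers against 9.82, 9.69 and 9.72 in HFD FST288 livers, a difference of -0.77 ± 0.09, 1.71-fold (adjusted p 8.08e-05). Both calls held in all 10 fits that left out 1 array and under all 10 other settings tried. Across the 4 groups Ccl9 averaged 8.97 ± 0.05 in LTKO FST288 livers (SD, n = 2), 8.29 ± 0.17 in LTKO GFP livers (n = 2), 9.75 ± 0.07 in HFD FST288 livers (n = 3) and 9.19 ± 0.09 in HFD GFP livers (n = 3).

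Cxcl1, the chemokine that draws neutrophils through Cxcr2, was lower in LTKO livers with either virus. It read 3.56 and 3.43 in LTKO GFP livers, against 4.44, 3.91 and 4.46 in HFD GFP livers, a fall of 1.71-fold (difference -0.78 ± 0.18, adjusted p 0.00916). With FST288 it read 3.86 and 3.62 in LTKO livers, against 4.36, 4.42 and 4.24 in HFD livers (difference -0.60 ± 0.18, adjusted p 0.0437). Neither pair of groups overlapped. The GFP call was lost without LTKO GFP replicate 2 (adjusted p 0.0717), and the FST288 call was kept in only 4 of the 10 fits that left out 1 array. It was also lost with the acinar covariate (-0.62, adjusted p 0.25), without the acinar-high arrays (-0.62, adjusted p 0.277), and without LTKO FST288 replicate 2 (-0.48, adjusted p 0.277). The other neutrophil-drawing ligands, Cxcl2, Cxcl3, Cxcl5 and Cxcl15, averaged between 1.41 and 2.64 over all arrays and were not called.

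Ccl25, which draws cells bearing Ccr9 to the gut and thymus, fell in LTKO livers under GFP. It read 4.19 and 4.18 in LTKO GFP livers, against 4.91, 4.82 and 4.61 in HFD GFP livers, a difference of -0.59 ± 0.13, 1.51-fold (adjusted p 0.00821). This call held in all 10 fits that left out 1 array and under all 10 other settings tried. Under FST288 it read 4.36 and 4.38 in LTKO livers, against 4.41, 4.60 and 4.53 in HFD livers. The arrays did not overlap here either, but the difference of -0.15 ± 0.13 did not pass (adjusted p 0.62).

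Ccl7 and Ccl27a were called higher in LTKO GFP livers, and both calls were sensitive to single arrays. Ccl7 read 4.28 and 4.87 in LTKO GFP livers, against 3.87, 3.91 and 3.87 in HFD GFP livers (difference 0.70 ± 0.18, 1.62-fold, adjusted p 0.0233). Leaving out any HFD GFP array or LTKO GFP replicate 2 ended the call, and the difference without LTKO GFP replicate 2 was 0.40. Ccl27a, a skin-homing ligand, read 3.73 and 4.17 in LTKO GFP livers, against 3.46, 3.37 and 3.28 in HFD GFP livers (difference 0.58 ± 0.16, adjusted p 0.0279). Values identical to those of a Ccl27a cluster on all arrays occur in 2 further clusters listed with several symbols, so near-identical copies of the gene cannot be told apart. With the mean of its 2 clusters in place of the brighter one the difference was -0.12 (adjusted p 0.793).

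**Figure D5:**
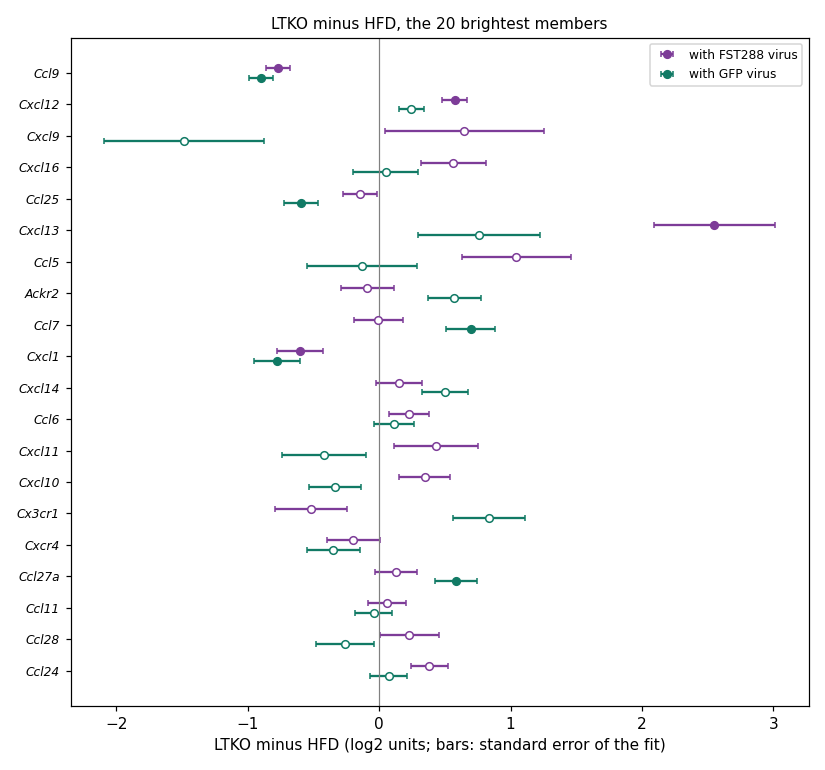
Log2 difference of LTKO minus HFD for each chemokine gene above the median gene, with FST288 and with GFP; points are differences, bars are SE, and filled points were called at an adjusted p under 0.05. Ccl9 and Cxcl1 are called lower with both viruses, and Cxcl12 and Cxcl13 are called higher with FST288.

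Under FST288, 4 of the 55 genes (7.27%) were called between LTKO and HFD livers, 2 higher and 2 lower, where 10.3% of all genes were called (5.05% higher, 5.29% lower). Arrays did not overlap for 8 genes in each direction (18.8% of all genes upward, 18.6% downward), and at an unadjusted p under 0.05, 6 genes were higher and 5 lower (10.7% and 10.2% of all genes). Among genes above the median signal it was 4 of 20 (20%), against 19.4% of all genes. Cxcl12 rose to 8.45 and 8.51 in LTKO FST288 livers, against 7.99, 7.82 and 7.92 in HFD FST288 livers, without overlap (difference 0.57 ± 0.09, 1.49-fold, adjusted p 0.00101). It also read higher under GFP, at 8.38 and 8.26 in LTKO livers against 8.14, 8.12 and 7.96 in HFD livers, again without overlap, but that difference of 0.25 ± 0.09 did not pass (adjusted p 0.11). The FST288 call held in all 10 fits that left out 1 array. It was lost with the acinar signal as a covariate (0.48, adjusted p 0.058) and without the 2 HFD FST288 arrays high in acinar markers (0.49, adjusted p 0.0715). Its receptor Cxcr4 read 3.34 and 3.62 in LTKO FST288 livers, against 3.89, 3.73 and 3.41 in HFD FST288 livers, and 3.38 and 3.69 in LTKO GFP livers against 3.597, 3.83 and 4.22 in HFD GFP livers, with overlapping arrays in both pairs and no call. Ccl24, a CC ligand, read 3.545 and 3.325 in LTKO FST288 livers, against 3.157, 2.985 and 3.015 in HFD FST288 livers. These arrays did not overlap, but the difference of 0.38 ± 0.14 did not pass (adjusted p 0.116).

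Cxcl13 rose 5.86-fold in LTKO FST288 livers. It read 5.17 and 7.41 in LTKO FST288 livers, against 3.44, 3.97 and 3.80 in HFD FST288 livers (difference 2.55 ± 0.46, adjusted p 0.00231). The size depended on the array that stood apart: without LTKO FST288 replicate 2 the difference was 1.43 (adjusted p 0.0111) and without replicate 1 it was 3.67, and the call held in all 10 fits. Under GFP it read 4.98 and 4.36 in LTKO livers, against 4.37, 3.63 and 3.74 in HFD livers (difference 0.76 ± 0.46, adjusted p 0.349), with the lower LTKO array just under the highest HFD array. The receptor of Cxcl13, Cxcr5, read 2.21 to 3.14 over the 10 arrays and was not called. Of the 8 Kupffer cell markers, 6 were called higher in LTKO FST288 than in HFD FST288 livers, where 5.05% of all genes were. Without LTKO FST288 replicate 2 only Marco among these 6 was still called (difference 1.48, adjusted p 0.00427), and without the acinar-high arrays none of the 6 was (Marco 2.49, adjusted p 0.0561). The part of these cells in the Cxcl13 value was not tested.

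For Cxcl9 the comparison of LTKO with HFD livers turned on the same array. Under GFP it read 5.95 and 5.34 in LTKO livers, against 7.29, 7.004 and 7.10 in HFD livers, 2.8-fold lower without overlap. The difference of -1.49 ± 0.61 did not pass the test in the fit of all arrays (adjusted p 0.14), where the spread of the LTKO FST288 pair enters the error. It passed without LTKO FST288 replicate 2 (adjusted p 2.45e-05), without replicate 1 (adjusted p 2.13e-05), and when the LTKO GFP and HFD GFP arrays were fitted alone (adjusted p 0.000252). Under FST288 it read 5.82 and 9.12 in LTKO livers, against 6.77, 6.83 and 6.86 in HFD livers, a mean difference of 0.65 ± 0.61 (adjusted p 0.639) with 1 LTKO array below all HFD arrays and 1 above. Without LTKO FST288 replicate 2 the difference was -1.004 (adjusted p 0.006). Cxcl10 and Cxcl11, induced by interferon like Cxcl9, had LTKO GFP arrays below all HFD GFP arrays and were not called (differences -0.34 ± 0.19 and -0.42 ± 0.32, adjusted p 0.319 and 0.468).

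Signalling receptors gave 0 calls among 17 genes in each of the 5 comparisons, where 0.996% and 0.167% of all genes were called for FST288 in HFD and in LTKO livers, 13.1% and 10.3% for LTKO against HFD with GFP and with FST288, and 0.216% for the difference of effects. All but Cx3cr1 and Cxcr4 lay below the median signal. Among all genes at or below it, calls for LTKO against HFD were 2.38% with GFP and 1.23% with FST288, so few calls were to be had at such signals. At an unadjusted p under 0.05, 4 receptors were higher in LTKO GFP livers than in HFD GFP livers and 0 lower, against 13.2% and 12% of all genes. The median difference over all 17 receptors was 0.21 (all genes 0.01). Cx3cr1 was the nearest to a call, at 4.01 and 4.30 in LTKO GFP livers against 3.38, 3.73 and 2.86 in HFD GFP livers (difference 0.84 ± 0.27, adjusted p 0.0621). It passed in 4 of the 10 fits that left out 1 array, among them those without an LTKO FST288 array (adjusted p 0.0453 and 0.0457). Ccr2, the monocyte receptor of Ccl2 and Ccl7, read 2.08 and 2.90 in LTKO FST288 livers, 2.30 and 2.03 in LTKO GFP livers, 2.06 to 2.22 in HFD FST288 livers and 1.84 to 2.07 in HFD GFP livers. Its ligand Ccl2 read 2.57 and 3.22 in LTKO FST288 livers, 2.99 and 2.88 in LTKO GFP livers, 2.95 to 3.13 in HFD FST288 livers and 2.95 to 3.08 in HFD GFP livers. Both averaged below the signal of the median gene and were not called. Cxcr6, the receptor of Cxcl16, and Xcr1, a receptor of cross-presenting dendritic cells, averaged 2.32 and 2.59 and were not called.

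Atypical receptors gave 0 calls among 4 genes in each of the 5 comparisons, a number too small to set them apart from other genes. Of all genes, 0.996% and 0.167% were called for FST288 in HFD and in LTKO livers. The shares were 13.1% and 10.3% for LTKO against HFD with GFP and with FST288, and 0.216% for the difference of effects. Ackr2, which scavenges inflammatory CC chemokines, read 4.48 and 4.12 in LTKO FST288 livers, 4.53 and 4.75 in LTKO GFP livers, 4.43, 4.64 and 4.10 in HFD FST288 livers and 3.74, 4.12 and 4.35 in HFD GFP livers. The 2 LTKO GFP arrays lay above the 3 HFD GFP arrays (difference 0.57 ± 0.20, adjusted p 0.0868). Ackr1, Ackr3 and Ackr4 averaged 2.59, 2.62 and 1.93 over all arrays.

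The 35 genes at or below the median signal had 0 calls in each of the 5 comparisons. Of all genes at or below that signal, 0.153% and 0.0451% were called for FST288 in HFD and in LTKO livers, 2.38% and 1.23% for LTKO against HFD with GFP and with FST288, and 0.0361% for the difference of effects. Single genes among them spanned 0.26 to 1.12 log2 units over the 10 arrays. The deposited table carries no detection call, so whether these transcripts were present cannot be stated. Ccr3, an eosinophil receptor chosen here after its values were seen, was the nearest to a call between LTKO and HFD livers with FST288: it read 1.77 and 2.63 in LTKO FST288 livers, against 1.52 to 1.72 in HFD FST288 livers (adjusted p 0.0675). Cx3cl1, the ligand of Cx3cr1, averaged 2.63, with no call.

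Genes around the family were read from lists drawn up by role. Of 18 inflammatory inducers of chemokines, 1 was called higher in HFD FST288 than in HFD GFP livers, 0 in LTKO FST288 against LTKO GFP livers, 4 lower in LTKO GFP livers against HFD GFP livers, and 1 lower in LTKO FST288 than in HFD FST288 livers. The shares of all genes called in those directions were 0.577% for the first, 6.4% for LTKO GFP against HFD GFP livers and 5.29% with FST288, and 0.167% were called in either direction in LTKO livers under FST288. Il1r1, the receptor of interleukin 1, accounts for the HFD call: it read 8.13, 8.13 and 8.11 in HFD FST288 livers, against 7.43, 6.84 and 7.23 in HFD GFP livers (difference 0.95 ± 0.13, adjusted p 0.0025). That call too was lost with the acinar covariate (0.97, adjusted p 0.0965) and without the acinar-high arrays (0.96, adjusted p 0.232). Il1r1 fell in LTKO livers, to 6.02 and 5.92 in LTKO GFP livers (difference from HFD GFP livers -1.19 ± 0.14, adjusted p 6.33e-05) and to 5.87 and 5.75 in LTKO FST288 livers (difference from HFD FST288 livers -2.31 ± 0.14, adjusted p 1.64e-07). Il1b, which codes for interleukin 1 beta, read 3.39, 3.69 and 3.70 in HFD FST288 livers, against 5.14, 5.10 and 5.17 in HFD GFP livers. These arrays did not overlap, and the difference of -1.54 ± 0.44 did not pass (adjusted p 0.141). As for Cxcl9, the SE comes from a spread shared by all 10 arrays, and the LTKO pairs lay further apart than the HFD arrays. In LTKO livers Il1b read 3.53 and 6.04 with FST288 and 3.69 and 2.81 with GFP, so LTKO FST288 replicate 2 was the highest of the 10 arrays here as well. Its fall in LTKO GFP against HFD GFP livers was called (-1.89 ± 0.49, adjusted p 0.0213), as were those of Il1a (-0.75, adjusted p 0.0324) and Irf7, an interferon regulatory factor (-0.76, adjusted p 0.0375). Of the 10 fits that left out 1 array, 6 kept the Il1b call, 6 the Il1a call and 2 the Irf7 call. Tnf, Il6 and Ifng averaged 2.44, 2.05 and 2.31 and were not called.

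Of 21 genes that signal below chemokine receptors, 0 were called in either FST288 comparison, 2 in LTKO GFP against HFD GFP livers (1 higher, 1 lower) and 7 in LTKO FST288 against HFD FST288 livers (5 higher, 2 lower), where 13.1% and 10.3% of all genes were called with GFP and with FST288. Of the 7 calls, those of Gnai2, Gnai3, Rac2 and Grk5 were lost without the acinar-high arrays (adjusted p 0.382, 0.209, 0.429 and 0.0555), and the first 3 also without LTKO FST288 replicate 2. Rgs16, which shortens Gi signals, fell most: it read 5.59 and 4.35 in LTKO FST288 livers, against 9.496, 9.61 and 9.57 in HFD FST288 livers (difference -4.59 ± 0.44, adjusted p 1.08e-05), and 3.87 and 5.92 in LTKO GFP livers, against 8.54, 8.59 and 8.41 in HFD GFP livers (difference -3.62 ± 0.44, adjusted p 8.08e-05). Arrb2, the arrestin that switches off and internalises such receptors, rose in both (0.91 ± 0.14 with FST288, adjusted p 0.00052, and 0.78 ± 0.14 with GFP, adjusted p 0.00159). Grk3 and Grk5, kinases that mark active receptors for arrestin, rose with FST288 (1.05 ± 0.17, adjusted p 0.000804, and 0.97 ± 0.17, adjusted p 0.00144). Of 6 chemokines and receptors named otherwise, Mif, a cytokine that binds Cxcr2 and Cxcr4, rose in LTKO livers with GFP (0.92 ± 0.11, adjusted p 9.96e-05) and with FST288 (0.55 ± 0.11, adjusted p 0.0055), the second call being lost without the acinar-high arrays (0.59, adjusted p 0.0737). Ppbp, the platelet ligand of Cxcr2, rose with FST288 (0.75 ± 0.22, adjusted p 0.0489), and that call was kept in 2 of the 10 fits that left out 1 array and lost with the acinar covariate (adjusted p 0.102) and without the acinar-high arrays (adjusted p 0.114). Pf4, the platelet chemokine, averaged 2.72 and was not called.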

How the data were processed

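RNA of 10 liver samples was measured on 1 Affymetrix whole-transcript array each. The deposited values are on the log2 scale and were made by the authors with Affymetrix Expression Console and the RMA method (background correction, quantile normalization and probe summary), per the submitters' processing notes, which give no version. Scanner files were not used here, and the table has no detection calls. It holds 41345 transcript clusters: 23521 were listed with 1 gene symbol, 1814 with several, and 16010 with none or not at all. The brightest single-symbol cluster stood for each of 22180 genes (1082 had several). RMA draws the arrays to 1 distribution, so differences are relative to it. The number of arrays limits the precision.

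limma 3.58.1 in R 4.3.3 fitted 1 mean per group over all 10 arrays, with eBayes and an intensity trend (residual df 6, prior df 7.155), two-sided. p-values were adjusted by Benjamini-Hochberg over the 22180 genes in each of 5 comparisons, which share arrays. Folds are 2 to the size of the log2 difference. The procedure was tested on simulated data. Of changes of 0.5 log2 units, 25.8% were recovered for FST288 in HFD livers and 8% in LTKO livers. For LTKO against HFD with GFP it was 13.8%. Of changes of 1 log2 unit, 83.4%, 63.2% and 76.4% were recovered, in the same order. Most changes near 0.5 were thus missed in the simulation, where 200 of the 22180 genes were changed in each run. The fit of LTKO against HFD with GFP called 2902 genes in the data. More calls make the adjusted threshold less strict, so the simulated shares may be too low for that comparison. No 2 arrays held identical values, and the lowest correlation between arrays of 1 group was 0.9891.

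Members and gene lists (12 of cell type markers and 11 others; 173 of 189 genes matched) were chosen with earlier results of these data known. The text names 28 members by rule: those called in any comparison, the 8 with the highest signal, the 3 with the smallest p in each comparison, and a set of ligands and receptors with known liver roles; others were named after their values were seen. Alternatives were arrays fitted alone by comparison, no intensity trend, array weights, repeated quantile normalization, a filter on dim genes, the mean of a gene's clusters, all clusters, a replicate block, an acinar covariate, leaving out the 2 arrays high in acinar markers, a threshold of 0.1, and leaving out each array.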

Additional observations from a re-analysis of the deposited data

Results flagged for a closer look

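The effect of FST288 on Il1r1, the receptor of interleukin 1, differed between LTKO and HFD livers in the test of the difference itself. Il1r1 read 5.87 and 5.75 in LTKO FST288 livers, against 6.02 and 5.92 in LTKO GFP livers (difference -0.17 ± 0.15), and 8.13, 8.13 and 8.11 in HFD FST288 livers, against 7.43, 6.84 and 7.23 in HFD GFP livers (difference 0.95 ± 0.13). The LTKO difference minus the HFD difference was -1.12 ± 0.20 by limma, with an adjusted p of 0.0441. Over the 10 fits that left out 1 array it lay between -1.25 and -0.96, and the adjusted p, between 0.0216 and 0.137, passed in 2 of them. Of 9 other settings 4 kept the call. It was lost with the acinar covariate (-1.14, adjusted p 0.288), without the acinar-high arrays (-1.13, adjusted p 0.471), without an intensity trend (adjusted p 0.105), with quantile normalization (adjusted p 0.0525) and with all clusters tested (adjusted p 0.169). The difference itself moved by little under these settings, at -1.14 to -1.10.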

How the results depend on the processing

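Ccl9 between LTKO and HFD livers with either virus, Ccl25 between LTKO GFP and HFD GFP livers, and Cxcl13 between LTKO FST288 and HFD FST288 livers kept their calls under all 20 alternatives (10 that left out 1 array and 10 others). The other called members lost the call under at least 1. In HFD livers the count of chemokine genes called under FST288 was 1, and it was 0 without an intensity trend, with the acinar covariate and without the 2 acinar-high arrays. In LTKO livers it was 1, and 0 when those 4 arrays were fitted alone, without an intensity trend, with all clusters tested, with the replicate block and without the acinar-high arrays. Between LTKO GFP and HFD GFP livers the count was 5, with 3 when all clusters were tested and 8 at an adjusted p under 0.1. Between LTKO FST288 and HFD FST288 livers it was 4, with 2 under the acinar covariate and 2 without the acinar-high arrays.

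Leaving out 1 array gave counts of 1 to 1 for FST288 in HFD livers, 0 to 7 for FST288 in LTKO livers, 3 to 7 for LTKO against HFD with GFP, 3 to 10 with FST288, and 0 to 5 for the difference of effects. The highest counts of both LTKO FST288 comparisons and of the difference came without LTKO FST288 replicate 1. Turned directions were listed only where the fit of all arrays or the alternative fit gave a call. By that rule the direction turned for Ccl27a with the mean of its clusters (-0.12), for Cxcl9 between LTKO FST288 and HFD FST288 livers when arrays were left out (-1.004 without LTKO FST288 replicate 2, up to 2.301 without replicate 1), and for the acinar gene Clps in the same comparison with the acinar covariate (0.053, against -2.92). Differences without a call in either fit turned as well. For Ccl5 in LTKO livers the main difference under FST288 was 0.72, while FST288 replicate 1 alone read 4.11, against a GFP mean of 4.33. The causes were not tested.

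Over all genes, the 221 calls for FST288 in HFD livers became 411 with those arrays alone, 101 without a trend, 57 with all clusters, 30 with the acinar covariate and 6 without the acinar-high arrays. The 37 calls in LTKO livers became 0 with those arrays alone and 237 without LTKO FST288 replicate 1. The 48 calls of the difference became 3 without a trend, 2 with all clusters, 1 with the acinar covariate and 266 without LTKO FST288 replicate 1. The 2293 calls between LTKO FST288 and HFD FST288 livers became 1493 with all clusters and 939 without the acinar-high arrays, and the 2902 with GFP became 1870 without LTKO GFP replicate 1. Deviations of same-numbered arrays correlated between -0.068 and 0.034. In groups of 2 arrays the deviations mirror each other, so these values cannot settle whether same-numbered arrays were handled together. The replicate block gave 1, 0, 4, 4 and 0 called chemokine genes over the 5 comparisons, in the order above. The number of arrays, 2 or 3 a group, limits the precision, and without detection calls the presence of the 35 genes at or below the median signal cannot be stated.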

Other observations

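Ccl19, Ccl21 and Ccl27 sequences, the lymphoid-homing CC ligands that exist in near-identical copies in the mouse, were carried by 33 clusters listed with several symbols, of which 23 held distinct values. They cannot be given to 1 gene and are described by family. The median of the Ccl21 clusters was 3.63 and 3.74 in LTKO FST288 livers, against 4.11 and 4.30 in LTKO GFP livers, and 4.04, 4.24 and 3.99 in HFD FST288 livers, against 3.72, 3.83 and 3.38 in HFD GFP livers. Neither pair overlapped, where 21.1% of all genes did so downward in LTKO livers and 9.3% upward in HFD livers. The smallest adjusted p among the Ccl21 clusters, with all clusters tested by limma, was 0.297 in LTKO livers and 0.274 in HFD livers. The median of the Ccl19 clusters lay between 3.64 and 4 on all 10 arrays. Of the 33 clusters, 2 were called in any comparison, both between LTKO GFP and HFD GFP livers: a Ccl21 cluster higher by 0.60 (adjusted p 0.026) and a Ccl27 cluster that fell by 0.73 (adjusted p 0.0224). In that comparison, with all clusters tested, 2043 of the 22180 genes were called. These clusters were chosen after their values were seen.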
